A study of Mus musculus with 9 samples.

Results

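The genes described here encode the proteins of the cytosolic ribosome, the particle that makes protein in every cell. Members were chosen by symbol: Rpsa, Rplp0, Rplp1 and Rplp2, and every symbol made of Rpl or Rps, a number and optional letters, without pseudogene symbols and without the kinases that phosphorylate Rps6. Of 86 such genes, 82 reached a mean of 1 over the 9 libraries and were analysed, among 15014 genes tested and 36121 genes in the table. They comprise 33 small subunit genes, 46 large subunit genes and the 3 stalk genes. The other 4, Rpl39l, Rpl10l, Rpl32l and Rpl6l, had means of 0.286, 0.0955, 0.0692 and 0.0173 and were not tested.

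RNA was taken from sciatic nerves of C57BL6 mice aged 21 days, 3 mice per group, of which 2 were female and 1 male. The cKO group carried Cnp-Cre and Tardbp-fl/fl, the cHet group Cnp-Cre and Tardbp-fl/+, and the Control group Tardbp-fl/fl with no Cre named, so that all groups carried a floxed Tardbp allele. Tardbp encodes TDP-43, an RNA-binding protein that acts in splicing. Cnp-Cre is active in Schwann cells, the glia that myelinate the nerve, and in oligodendrocytes. The paper shows TDP-43 kept in other nerve cells of a knockout made with Dhh-Cre. Which cells keep it under Cnp-Cre is not shown there. Groups follow the sample titles, and the genotype field of 3 libraries (cKO ID-2744, cKO ID-2747 and cHet ID-2742) names another genotype. Tardbp had 103, 94.2 and 103 normalized TPM in cKO nerves, 177, 179 and 186 in cHet nerves, and 185, 194 and 217 in Control nerves, so that the libraries titled cKO were the 3 lowest. Cnp, the gene whose locus carries the Cre, had 554, 799 and 498 in cKO nerves, 640.5, 849 and 803 in cHet nerves, and 1168, 1267 and 1700.5 in Control nerves, all 6 Cre libraries lying below the 3 Control libraries. All 10 Schwann cell markers looked at were above 0 in each of the 9 libraries. Normalized TPM is a level per transcript length that was scaled further between libraries, whose sums were 934932 (cHet ID-2750) to 1158094 (cKO ID-2747). No read depth can be taken from such values, and their counting error is not known.

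A ribosome is built from a small subunit, which reads the mRNA, and a large subunit, which joins the amino acids and carries a flexible stalk of Rplp0, Rplp1 and Rplp2 that recruits translation factors. The proteins are needed in nearly equal amounts, and copies that find no place in a ribosome are degraded. Their mRNAs belong to the 5′ TOP class, which begins with a C and a run of pyrimidines, and their translation is switched through mTOR and the binding protein LARP1. In peripheral nerve, Schwann cells make large amounts of myelin protein and lipid in early postnatal life.

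The start of the transcript is shown for 12 members, since the pyrimidine run there defines the class and played no part in the choice by symbol. The first 10 were picked because they show such a run, and Rpl5 and Rplp0, which are described further on, for contrast. Each line gives 30 bases, 10 before the annotated start and 20 from the start on, 5′ to 3′ on the strand of the gene, with the C and the pyrimidines that follow it in capitals (RefSeq, GRCm38.p6).
Rps6 (chr4:86857348-86857377, minus strand): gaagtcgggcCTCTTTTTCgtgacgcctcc
Rps10 (chr17:27635225-27635254, minus strand): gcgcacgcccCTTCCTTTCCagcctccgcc
Rps18 (chr17:33955646-33955675, minus strand): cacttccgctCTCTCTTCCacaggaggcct
Rps27 (chr3:90213629-90213658, minus strand): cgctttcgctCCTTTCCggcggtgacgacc
Rps27rt (chr9:114982720-114982749, minus strand): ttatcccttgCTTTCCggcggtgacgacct
Rpl28 (chr7:4792955-4792984, plus strand): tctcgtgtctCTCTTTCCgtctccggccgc
Rpl35 (chr2:39005112-39005141, minus strand): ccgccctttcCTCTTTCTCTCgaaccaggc
Rpl38 (chr11:114668570-114668599, plus strand): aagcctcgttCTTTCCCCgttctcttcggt
Rplp2 (chr7:141447641-141447670, plus strand): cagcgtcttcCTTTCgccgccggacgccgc
Rps12 (chr10:23787190-23787219, minus strand): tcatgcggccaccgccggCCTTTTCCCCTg
Rplp0 (chr5:115559457-115559486, plus strand): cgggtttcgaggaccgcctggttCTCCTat
Rpl5 (chr5:107900518-107900547, plus strand): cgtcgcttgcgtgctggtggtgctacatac

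In the first 9 the run begins at the annotated start, in Rps12 it begins 8 and in Rplp0 13 bases further in, and the Rpl5 window holds none. Rps27rt is a retrogene, a copy of the Rps27 mRNA set down elsewhere in the genome. A start window was found for 61 of the 82 members, 73 windows in all, because 10 members have more than 1 annotated start. A C at the start followed by 4 or more pyrimidines occurred in 14 of the 73 windows (19.2%), against 823 of 32851 windows of all genes (2.51%). Within 10 bases before to 15 after the start, such a run occurred in 39 member windows (53.4%) and in 30.7% of all windows.

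In the 300 bases around the start (250 before, 50 from the start on) the letters CCGGAAG, or CTTCCGG on the other strand, were present in 25 of 73 member windows (34.2%), against 8.86% of all 32851 windows. These letters belong to the motif of ETS factors such as GABP. AAGATGG or CCATCTT, part of the YY1 motif, was present in 15.1% of member windows and 6.34% of all windows. TATAA or TTATA was present in 21.9% of member windows and 24.9% of all windows. The following 4 examples lie before the start, with the 7 letters in capitals.
Rps6 (chr4:86857442-86857468, minus strand): taatctacgcCCGGAAGtaacgcccct
Rps10 (chr17:27635257-27635283, minus strand): gccgcgcagcCCGGAAGagacgctgcg
Rpl38 (chr11:114668550-114668576, plus strand): ggttaaccgtCCGGAAGcggaagcctc
Rplp2 (chr7:141447533-141447559, plus strand): aaatgtcttcCTTCCGGtgcacccttt

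Ribosomal protein genes were among the most abundant transcripts of the nerve. The median of the 82 means was 835 normalized TPM, 28 members had means of 1000 or more, and 28 of the 100 genes with the highest means in the table were members. Rplp1, one of the acidic stalk proteins, was highest with a mean of 3273 over the 9 libraries, followed by Rpl41 (2937), the smallest ribosomal protein, Rps27 (2781), Rpl13a (2667) and Rps29 (2308). These neighbours overlapped library by library. Rplp1 ranged from 2642 to 4798 normalized TPM and Rpl41 from 2317 to 4654. At the low end stood Rpl3l (9.46), Rps27rt (10.3), Rps4l (37.7), Rpl12 (39.6) and Rpl27 (46.4). Rpl12 and Rpl27 are regular parts of the large subunit, and their copies elsewhere in the genome are described further on.

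The libraries did not carry these genes evenly. Summed over the 82 members, the level was 80574, 115390.0 and 78961 normalized TPM in the cKO nerves ID-2744, ID-2747 and ID-2748. It was 79288, 67687 and 68506 in the cHet nerves ID-2742, ID-2745 and ID-2750, and 80554, 80201 and 78317 in the Control nerves ID-2743, ID-2746 and ID-2754. One cKO library, ID-2747, stood far above all others, cHet ID-2745 and ID-2750 stood below, and the remaining 6 lay within 78317 to 80574. The group sums were 91642 ± 20582 in the cKO, 71827 ± 6474 in the cHet and 79691 ± 1203 in the Control (SD, n = 3 mice each). The other 2 cKO libraries averaged 79768. As a share of all values of a library, members made up 7.78% to 9.96% in the cKO, 7.02% to 8.33% in the cHet and 7.87% to 8.06% in the Control. In whole nerve, fewer cells of a type and less RNA per cell cannot be told apart.

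Nearly the whole set shared the shift. Taking the log2 value of each gene minus its own mean over the 9 libraries, the median member deviated by 0.52 in cKO ID-2747, by -0.25 in cHet ID-2745 and by -0.22 in cHet ID-2750, and by -0.04 to 0.02 in the other 6 libraries. In cKO ID-2747, 78 of 82 members had their highest value, and 81 stood above their own mean. The 4 exceptions were Rps29 and Rpl15, highest in cHet ID-2742, Rpl37rt, highest in cHet ID-2750, and Rpl3l, highest in Control ID-2743. Summed with its near-identical copies elsewhere in the genome, described further on, Rpl15 too was highest in cKO ID-2747 (943). The lowest value fell in cHet ID-2750 for 40 members and in cHet ID-2745 for 30. In cKO ID-2747 the median deviation was 0.50 for the small subunit, 0.52 for the large subunit and 0.57 for the stalk.

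**Figure D1:**
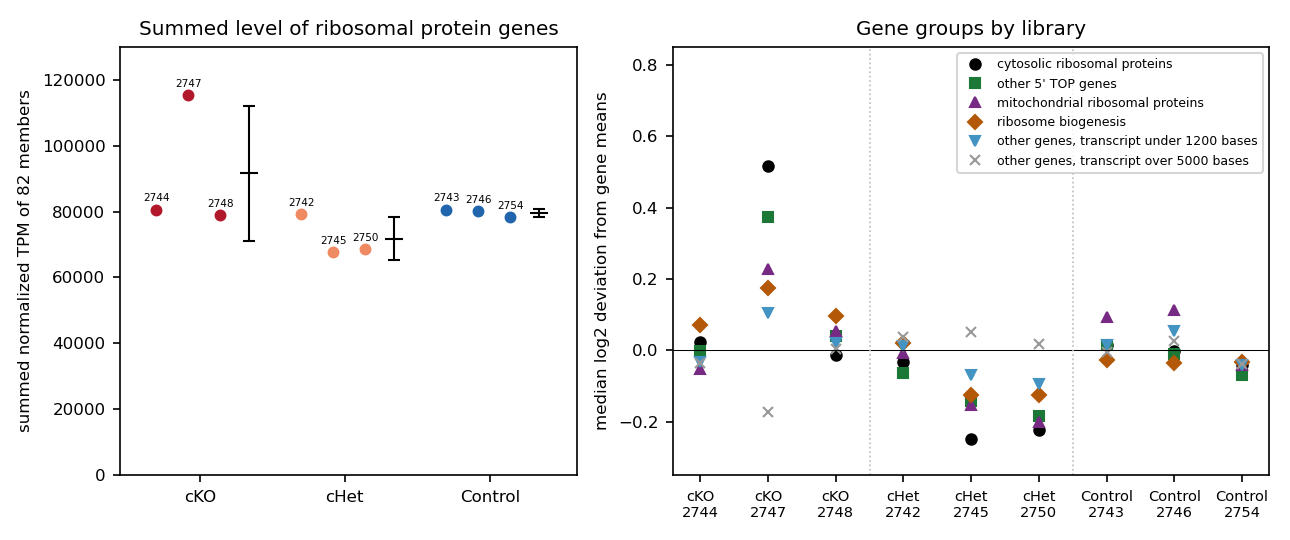
Left, summed normalized TPM of the 82 ribosomal protein genes in each nerve (points, with the mouse number), with group mean ± SD beside them; right, for each library, the median log2 deviation from the gene means of 6 gene groups. cKO ID-2747 stands at 115390.0 on the left and at 0.52 on the right, and cHet ID-2745 and ID-2750 lie below the other libraries for the members in both.

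Other measures moved in the same libraries. The sum of all values was highest in cKO ID-2747 (1158094). It was lowest in the cHet nerves ID-2742, ID-2745 and ID-2750 (951539, 964186 and 934932), and rescaling to equal sums is described further on. Mitochondrial ribosomal protein genes, 78 in all and none of them a member, deviated by 0.23 in cKO ID-2747, by -0.15 in cHet ID-2745 and by -0.20 in cHet ID-2750. Among genes that are no member, those with transcripts under 1200 bases deviated by 0.11 in cKO ID-2747 and those over 5000 bases by -0.17. In cHet ID-2745 these values were -0.07 and 0.05, and in cHet ID-2750 -0.10 and 0.02. The members' transcripts are short, with a median length of 744.5 bases against 2288.5 bases over all tested genes, and the part of transcript length in the shift was not tested.

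Cell markers differed too, and their part was not tested either. The sum of 10 Schwann cell markers was 88979.8, 107675 and 77241 normalized TPM in cKO nerves, 95344, 134530.0 and 125481 in cHet nerves, and 102327, 104229 and 130809 in Control nerves. The cHet libraries with low ribosomal sums, ID-2745 and ID-2750, thus stood high here, as did Control ID-2754. Of the marker sums, those of fibroblasts (3635, against 4464 to 7262 in the other 8 libraries), red blood cells (1275, against 2579 to 8116), pericytes and smooth muscle (539, against 306 to 438) and T cells (17.8, against 6.17 to 9.996, with 2 of 6 markers past the filter on low values) lay outside the range of the other libraries in cKO ID-2747. Transcripts of the mitochondrial genome summed to 83423, 94241 and 89492 in cKO nerves, 64374, 59253 and 56435 in cHet nerves, and 81666, 67614 and 44229 in Control nerves, highest again in cKO ID-2747.

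**Figure D2:**
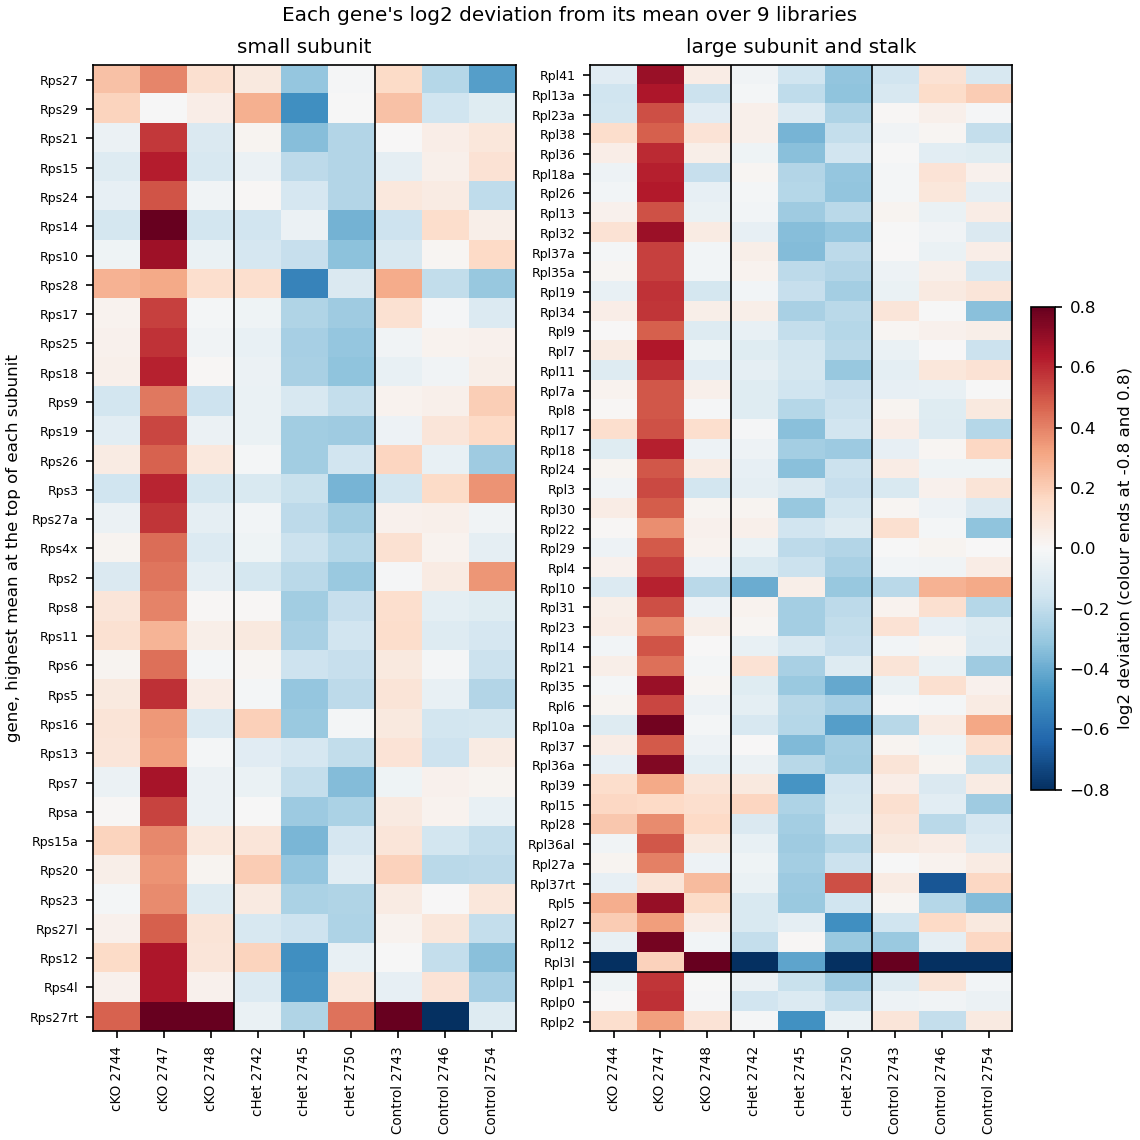
Log2 deviation of each of the 82 genes (rows, highest mean at the top, the 3 stalk genes below the line) from its own mean over the 9 libraries (columns, cKO, cHet and Control). The column of cKO ID-2747 is above 0 in 81 of 82 rows, and the columns of cHet ID-2745 and ID-2750 are above 0 in 2 and 3 rows.

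The comparison of cKO with Control sets animals with Cre and Tardbp-fl/fl against Tardbp-fl/fl animals with no Cre named. Loss of TDP-43, the Cre and the lower Cnp level come together in it and cannot be told apart. No ribosomal protein gene passed the threshold in either direction (limma, adjusted p under 0.05, 0 of 82), against 1.57% of all tested genes, and limma without a mean trend also called 0. The median log2 fold change of the members was 0.18, on the log2(value + 0.5) scale, against -0.02 over all genes. Of the 82 members, 78 lay above 0, against 46.4% of all genes. At an unadjusted p under 0.05, 4 members were higher in the cKO (4.88%, against 6.45% of genes) and 0 lower (6.44% of genes). These 4 were Rpl5, Rpl17, Rpl28 and Rps12. Fewer members passed this cut once near-identical copies elsewhere in the genome were added, as described further on.

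Without cKO ID-2747 the median of the members was 0.03 and that of all genes -0.01, with 45 of 82 members above 0 and again 0 called. Of all 15014 genes, 56 were then called higher and 42 lower, and the share of all genes above 0 was not counted. Leaving out cKO ID-2744 or ID-2748 instead gave medians of 0.26 and 0.27.

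In 13 members every cKO value lay above every Control value (15.9%, against 8.85% of all genes), and in 0 every cKO value lay below (8.57% of all genes). Of the 13, 10 belong to the large subunit (Rpl5, Rpl7a, Rpl15, Rpl17, Rpl28, Rpl30, Rpl32, Rpl36, Rpl38 and Rpl39), 2 to the stalk (Rplp0 and Rplp2) and 1 to the small subunit (Rps12). The margins were often small. Rpl15, a large subunit protein, had 552, 551 and 540.1 normalized TPM in cKO nerves and 537, 465 and 405 in Control nerves, the closest pair being 540.1 and 537. With its near-identical copies added, Rpl15 summed to 640, 943 and 653 in cKO nerves and 629, 673 and 653 in Control nerves, which overlapped.

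Rpl5 had the largest log2 fold change of any member apart from the retrogene Rps27rt. Together with Rpl11 and 5S rRNA it forms a particle that binds Mdm2 and stabilises p53 when ribosome assembly is disturbed. Rpl5 (ENSMUSG00000058558, chr5:107900502-107909005, plus strand) had 75.2, 99.9 and 68.5 normalized TPM in cKO nerves, 56.6, 50.02 and 55.0 in cHet nerves, and 62.3, 52.5 and 48.2 in Control nerves. The cKO nerves lay above all others, also without ID-2747. The cKO nerves exceeded the Control by 0.56 in log2 (standard error 0.15, limma, unadjusted p = 0.00539, adjusted p = 0.139), and the cHet by 0.57 (adjusted p = 0.128). Its partner Rpl11 had 886, 1427 and 898 normalized TPM in cKO nerves and 901, 1015 and 1034 in Control nerves, and its 2 lower cKO values lay below all 3 Control values.

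Rpl28 (ENSMUSG00000030432, chr7:4792874-4795066, plus strand), a protein of the large subunit, had 406, 455 and 391 normalized TPM in cKO nerves, 323, 290.4 and 324 in cHet nerves, and 374, 301 and 319 in Control nerves. The cKO nerves were highest, with Control ID-2743 closest to them. For Rpl28 the cKO and Control nerves differed by 0.33 in log2 (standard error 0.11, limma, adjusted p = 0.232), and by 0.27 without cKO ID-2747. Rps12, a small subunit protein with a role in cell competition in Drosophila, had 124, 176 and 119.6 normalized TPM in cKO nerves, 127, 79.5 and 107 in cHet nerves, and 111, 98.1 and 88.7 in Control nerves. Its cKO values were above the Control values, but cHet ID-2742 was as high as 2 of them. Its log2 fold change was 0.47 (standard error 0.20, limma, adjusted p = 0.371).

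Rps27, Rpl17, Rpl32 and Rpl38 followed with log2 fold changes of 0.42, 0.35, 0.34 and 0.31 between cKO and Control (limma, adjusted p = 0.402, 0.358, 0.486 and 0.475). Rpl17, a large subunit protein, had 899.9, 1167 and 900.2 normalized TPM in cKO nerves and 850.2, 763 and 701 in Control nerves. Rpl32, often used as a reference gene, had 1525, 2256 and 1471 normalized TPM in cKO nerves and 1403, 1375 and 1294 in Control nerves. In both the gap between the 2 lower cKO nerves and the highest Control nerve was small next to that of cKO ID-2747. Rpl38, whose mutation in mice affects the translation of Hox mRNAs, had 2077, 2624 and 2037 normalized TPM in cKO nerves, 1941, 1456 and 1655 in cHet nerves, and 1847, 1902 and 1649 in Control nerves.

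At the other end stood members that lay level with the Control. Rps2, at the mRNA entry of the small subunit, had the lowest log2 fold change, -0.05 (standard error 0.17, limma, adjusted p = 0.942), with 812, 1185 and 838 normalized TPM in cKO nerves and 874, 919 and 1123 in Control nerves. Only cKO ID-2747 exceeded the Control nerves, of which ID-2754 was the highest. Rps9 (-0.05), Rpl10 (-0.03), Rps3 (-0.02), Rpl13a (0.03), Rps23 (0.03), Rps19 (0.06) and Rpl23a (0.08) were next. Of these, Rpl10 joins the large subunit late in its assembly, and Rps19 is often mutated in Diamond-Blackfan anaemia in humans. The 3 stalk genes lay close together, with log2 fold changes of 0.23 for Rplp0, 0.20 for Rplp2 and 0.19 for Rplp1. The medians of small and large subunit genes were 0.18 and 0.19.

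Rps6 is the small subunit protein whose phosphorylation is used as a readout of mTOR activity, which RNA levels do not measure. It had 845, 1128 and 824 normalized TPM in cKO nerves, 841, 741 and 731 in cHet nerves, and 879, 822 and 738 in Control nerves. Its difference between these groups was 0.19 in log2, cKO over Control (standard error 0.15, limma, adjusted p = 0.677). Rpsa, a small subunit protein that also serves as a laminin receptor at the cell surface, had 622, 901 and 600.0 normalized TPM in cKO nerves and 649, 631 and 595 in Control nerves. Outside cKO ID-2747 both genes overlapped between cKO and Control.

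Further members have a known role of their own. Rps27a, made as a fusion with ubiquitin, had 875, 1342 and 861 normalized TPM in cKO nerves, 889, 779.9 and 745 in cHet nerves, and 927, 930.4 and 885 in Control nerves. Rpl22, deleted in some human T cell leukaemias, had 756, 974 and 770.3 normalized TPM in cKO nerves, 772, 676 and 701 in cHet nerves, and 822, 742 and 602 in Control nerves. Rps4x, an X-linked gene of the small subunit, had 904, 1217 and 826 normalized TPM in cKO nerves, 871, 789.5 and 761 in cHet nerves, and 970.4, 907 and 848 in Control nerves. In all 3, cKO ID-2747 was highest and the other 2 cKO nerves lay within the range of the Control nerves or below it. Rps18, commonly used as a reference gene, had 1209.8, 1801 and 1183 normalized TPM in cKO nerves, 1139, 982 and 942 in cHet nerves, and 1131, 1154 and 1212 in Control nerves. Rpl13a, which in humans takes part in a complex that silences inflammatory mRNAs, had 2344, 4097 and 2317 normalized TPM in cKO nerves, 2589, 2266 and 2091 in cHet nerves, and 2391, 2892 and 3012 in Control nerves, and its cKO values included both the highest of the cKO and Control nerves and the 2 lowest. Rpl39, a short protein at the exit of the peptide tunnel, had 559.6, 624 and 545 normalized TPM in cKO nerves, 535, 365 and 455 in cHet nerves, and 525, 467 and 531 in Control nerves, with all cKO values above the Control by a narrow margin.

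**Figure D3:**
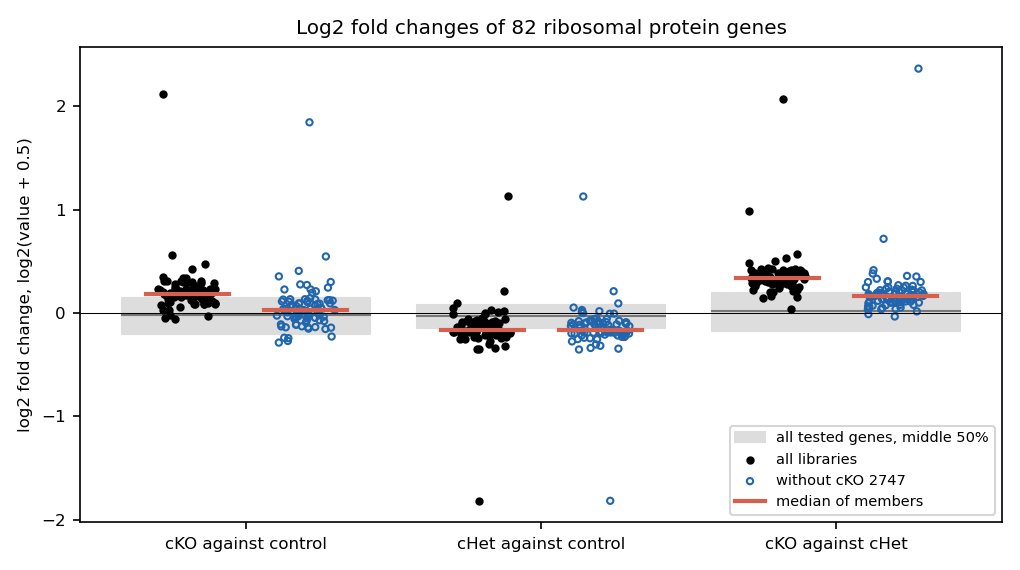
Log2 fold changes of the 82 genes in the 3 comparisons, from all libraries (filled points) and without cKO ID-2747 (open points), with the median of the members (red) and the median and middle 50% of all tested genes (grey). The member median is 0.18 for cKO against Control and 0.34 for cKO against cHet, and 0.03 and 0.16 without cKO ID-2747.

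The comparison of cHet with Control sets animals with Cre and 1 floxed allele against animals without Cre. The median log2 fold change was -0.16, against -0.03 over all genes, and 7 of 82 members lay above 0, against 43.4% of all genes. None passed the threshold (limma with or without a trend, 0 of 82), against 0% of all genes. At an unadjusted p under 0.05, 0 members were higher (0.813% of genes) and 0 lower (1.9% of genes). The model pools the spread over the 3 groups, so that cKO ID-2747 also enters these p-values. Without that library 8 members were lower at this cut, and with only the 2 groups compared in the model 3 were. The share of all genes at this cut was not counted in these 2 settings. In 15 members every cHet value lay below every Control value (18.3%, against 4.41% of all genes), and in 0 every cHet value lay above (2.69%). They were Rps2, Rps7, Rps9, Rps10, Rps19 and Rps25 of the small subunit, Rpl4, Rpl6, Rpl7a, Rpl9, Rpl24, Rpl27a, Rpl29 and Rpl35 of the large subunit, and Rplp0 of the stalk. Rps2 had 797, 758 and 716 normalized TPM in cHet nerves and 874, 919 and 1123 in Control nerves, with a log2 fold change of -0.35 (standard error 0.17, limma, adjusted p = 0.99998). Rps9, near the mRNA entry of the small subunit, had 1117, 1057 and 1016 normalized TPM in cHet nerves and 1177, 1188 and 1325 in Control nerves. Without cHet ID-2742 the median of the members was -0.23, and under quantile normalization of all libraries it was -0.02, with 30 members above 0. Under quantile normalization the median of all genes was 0.03, and their share above 0 was not counted.

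Between cKO and cHet, both with Cre, all 82 members lay above 0, against 52.6% of all genes, and the median log2 fold change was 0.34, against 0.02 over all genes. Again 0 of 82 passed the threshold (limma with or without a trend), against 1.71% of all genes. At an unadjusted p under 0.05, 24 members were higher (29.3%, against 7.89% of genes) and 0 lower (6.69% of genes). In 36 members every cKO value lay above every cHet value (43.9%, against 13.3% of genes), and in 0 below (11% of genes). Rpl32 had a log2 fold change of 0.53 (standard error 0.18, limma, adjusted p = 0.213), Rpl35 of 0.50 (adjusted p = 0.275) and Rpl28 of 0.42 (adjusted p = 0.128). Without cKO ID-2747 the median was 0.16, with 80 members above 0. At an unadjusted p under 0.05, 6 were then higher. The shares of all genes at this cut and above 0 were not counted without that library. This comparison shares the cKO nerves with that against Control, so that cKO ID-2747 enters both fold changes. Through the pooled spread it also enters the p-values of cHet against Control.

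The members did not all vary alike. The SD of a member's log2 value over the 9 libraries had a median of 0.24, against 0.23 over all tested genes, and exceeded 0.5 in 2 members, Rpl3l (2.36) and Rps27rt (1.60). The next were Rpl10a (0.36), Rps14 (0.35) and Rpl37rt (0.34). Rps14, a protein of the small subunit platform, had 1423, 2814 and 1419.8 normalized TPM in cKO nerves, 1414, 1520.3 and 1210.0 in cHet nerves, and 1399, 1735 and 1621 in Control nerves, so that cKO ID-2747 stood alone. Rps28, also of the small subunit, had 1717, 1743 and 1553 normalized TPM in cKO nerves and 1734, 1234 and 1146 in Control nerves, so that cKO ID-2744 and Control ID-2743 were level with cKO ID-2747. In Control ID-2754 members differed by base composition: the 41 members with the higher GC content had a median deviation of 0.04 and the other 41 of -0.10. In cKO ID-2747 these values were 0.53 and 0.50. The part of base composition in differences between members was not tested.

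Many ribosomal protein genes have retrocopies that hold nearly the same letters, and reads from such sequence can be assigned to either gene. Counting words of 31 bases, 64 members had at least 1 near-identical copy, and 10 members held less than 50% of the sum of their own level and that of their copies. Rpl12 had a mean of 39.6 normalized TPM where its copy Gm10275 had 1036, and Rpl27 had 46.4 where Rpl27-ps3 had 917. Rpl5 had 63.1 where Gm15500 had 726, and Rps12 had 115 where Rps12-ps3 had 1643. With their copies, Rpl12, Rpl27, Rpl5 and Rps12 summed to 1076, 979, 789 and 1759. The levels of these genes alone are therefore uncertain.

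With copies added, the differences of Rpl5, Rps12 and Rpl28 between cKO and Control were smaller. The sum for Rpl5 was 861, 1171 and 785 normalized TPM in cKO nerves, 739, 676 and 662 in cHet nerves, and 808, 745 and 651 in Control nerves, so that cKO and Control overlapped. The summed cKO level exceeded the Control by 0.34 in log2 (standard error 0.16, limma, adjusted p = 0.435), against 0.56 for Rpl5 alone. The sum for Rps12 gave 0.23 (adjusted p = 0.691), against 0.47 alone, and that for Rpl28 gave 0.22 (adjusted p = 0.545), against 0.33 alone. Over the whole set the median log2 fold change with copies was 0.18, as without, and 0 members were called. At an unadjusted p under 0.05, 1 member was higher in the cKO than in the Control, where 4 were without copies. Between cKO and cHet 24 were higher at that cut, as without copies. The share of all genes at that cut was not counted with copies added. These sums were chosen after the data were seen.

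**Figure D4:**
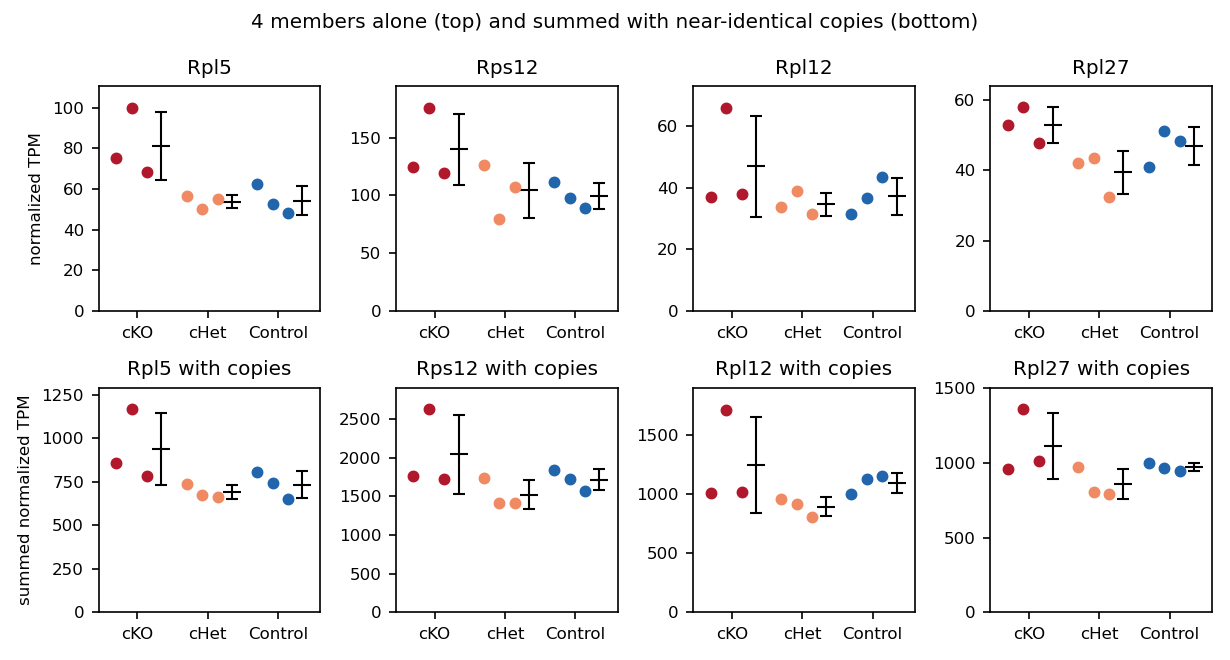
Normalized TPM of Rpl5, Rps12, Rpl12 and Rpl27 alone (top) and summed with their near-identical copies (bottom) in each nerve (points) of the cKO, cHet and Control groups, with group mean ± SD. All 3 cKO nerves lie above the Control nerves for Rpl5 alone, while the sums overlap (785 in cKO ID-2748 and 808 in Control ID-2743).

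Some paralogues are used in other tissues. Rpl3l replaces Rpl3 in ribosomes of striated muscle. Rpl3l (ENSMUSG00000002500, chr17:24727820-24736143, plus strand) had 0.542, 2.28 and 24.6 normalized TPM in cKO nerves, 0, 1.32 and 0.582 in cHet nerves, and 55.1, 0.234 and 0.554 in Control nerves. It was high in cKO ID-2748 and Control ID-2743, which also had the highest sums of 9 skeletal muscle markers. These sums were 246, 671 and 9740.1 normalized TPM in cKO nerves, 29.0, 323 and 251 in cHet nerves, and 18787, 77.7 and 59.8 in Control nerves. Rpl3 itself had 769.9, 1134 and 709 normalized TPM in cKO nerves, 749, 725 and 691 in cHet nerves, and 721, 806 and 843 in Control nerves, and it was no higher in the libraries with muscle markers. For Rpl3l the log2 fold change of cKO over Control was 0.25 with a standard error of 1.71 (limma, adjusted p = 0.974).

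**Figure D5:**
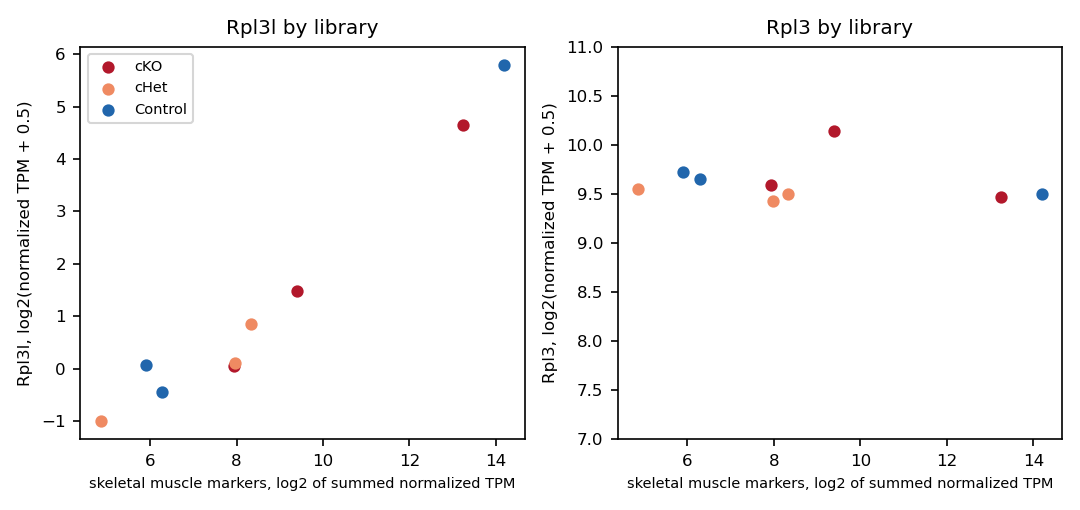
Rpl3l and Rpl3 against the summed skeletal muscle markers in each of the 9 nerves (points, by group), with log2(normalized TPM + 0.5) on the y axes and the log2 of the marker sum on the x axes. Rpl3l is highest in Control ID-2743 (55.1) and cKO ID-2748 (24.6), the nerves with the highest marker sums, and Rpl3 is highest in cKO ID-2747 (1134).

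Rps27rt, the retrogene shown above, shares 91.6% of its words with Rps27. It had 10.4, 23.0 and 15.9 normalized TPM in cKO nerves, 7.09, 6.16 and 10.1 in cHet nerves, and 13.6, 0 and 6.83 in Control nerves. Its parent had 3221, 3596 and 2994 normalized TPM in cKO nerves, 2886, 2212 and 2726 in cHet nerves, and 3044, 2333 and 2022 in Control nerves, so that the retrogene stood under 1% of its parent in every library. For Rps27rt the log2 fold change of cKO over Control, 2.11 (standard error 1.05, limma, adjusted p = 0.461), includes the Control library where it is listed at 0. Rps27l, a paralogue of Rps27 that p53 induces, had 366, 498 and 383 normalized TPM in cKO nerves, 326, 318 and 302 in cHet nerves, and 365, 380.3 and 313 in Control nerves, and the cKO and Control nerves overlapped. Rpl36al, the relative of the X-linked Rpl36a on chromosome 12, had 306, 441 and 329.8 normalized TPM in cKO nerves and 329, 325 and 289 in Control nerves, which also overlapped. Rps4l and Rpl37rt are annotated as transcribed processed pseudogenes and had means of 37.7 and 72.5.

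Other genes that serve translation gave no calls against Control. Of 20 other 5′ TOP genes, among them the elongation factor gene Eef1a1, 0 passed between cKO and Control or between cKO and cHet (limma). At an unadjusted p under 0.05, 0 were higher against Control (6.45% of all genes) and 7 against cHet (7.89% of all genes), and 0 were lower in either. Their median log2 fold changes were 0.15 and 0.27, beside -0.02 and 0.02 over all genes. Eef1a1 had 2947, 3625 and 2791 normalized TPM in cKO nerves, 2640.0, 2568 and 2520.4 in cHet nerves, and 2838, 2666 and 2809 in Control nerves, with cKO ID-2747 highest as for most members. In that library the other 5′ TOP genes deviated by 0.37.

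Of 33 genes of ribosome biogenesis, 0 passed between cKO and Control (limma), with 5 higher (6.45% of all genes) and 1 lower (6.44% of all genes) at an unadjusted p under 0.05 and a median log2 fold change of 0.19. Between cKO and cHet, 0 passed, with 9 higher (7.89% of all genes) and 0 lower at an unadjusted p under 0.05 and a median of 0.20. Their summed level was 1004 to 1138 normalized TPM in cKO nerves, 887 to 974 in cHet nerves and 947 to 973 in Control nerves. All 3 cKO sums lay above the other 6. Of 17 genes that control ribosomal protein expression, such as Mtor, Larp1 and Myc, 0 passed between cKO and Control, with 0 at an unadjusted p under 0.05. Of 15 tested p53 targets, 0 passed between these groups, with 1 higher (6.45% of all genes) and 1 lower (6.44%) at an unadjusted p under 0.05. Of 18 genes for ribosome partners, which help it to assemble, rescue stalled particles or modify nascent chains, 0 passed between these groups. At an unadjusted p under 0.05, 4 were higher (6.45% of all genes) and 1 lower (6.44%). Between cKO and cHet 0 passed, with 7 higher (7.89% of all genes) and 0 lower (6.69%) at an unadjusted p under 0.05. Between cHet and Control, 0 genes of these 5 lists passed (limma). At an unadjusted p under 0.05 only 1 biogenesis gene was lower (1.9% of all genes) and 0 genes were higher (0.813%).

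Mitochondrial ribosomal proteins, which build the ribosome of the mitochondrion from nuclear genes, gave 1 call. Of 78 genes, 1 passed between cKO and cHet (limma), a smaller share than the 1.71% of all genes. Between cKO and Control 0 passed (1.57% of all genes), as between cHet and Control (0% of all genes). At an unadjusted p under 0.05, 19 were higher (7.89% of all genes) and 2 lower (6.69%) between cKO and cHet, where 70 of 78 lay above 0 with a median log2 fold change of 0.20. Between cKO and Control 2 were higher (6.45%) and 3 lower (6.44%), and between cHet and Control 0 were higher (0.813%) and 6 lower (1.9%). Mrpl2, a large subunit protein of that ribosome, had 71.7, 67.8 and 59.9 normalized TPM in cKO nerves, 41.9, 46.3 and 47.6 in cHet nerves, and 52.0, 43.6 and 51.1 in Control nerves. It rose in the cKO over the cHet, with a log2 fold change of 0.55 (standard error 0.11, limma, adjusted p = 0.0458), and cKO ID-2747 was not its highest library. Over the Control its log2 fold change was 0.44 (standard error 0.11, limma, adjusted p = 0.0982). The median log2 fold change of the 78 genes was 0.02 between cKO and Control, where the cytosolic set had 0.18, and -0.18 between cHet and Control, where the cytosolic set had -0.16.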

How the data were processed

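The authors sequenced RNA from 9 sciatic nerves (TruSeq libraries) and deposited 1 table with a signal in normalized TPM for 36121 genes. In the submitters' processing notes the tools are kallisto 0.44.0 and sleuth 0.30.0 and the build is GRCm38. The paper names an Ensembl release for a separate alignment of the reads. The annotation and parameters used with kallisto and the scaling between libraries were not stated there or in the labels. The paper gives read yield only as a range over samples, and depth per library cannot be read from TPM.

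Symbols were matched by Ensembl identifier (35471 genes with a symbol, 650 without). Coordinates and transcript lengths come from GENCODE M21, start windows from RefSeq. Genes with a mean of 1 or more were tested as log2(value + 0.5), which understates the change of low genes, in 1 limma 3.58.1 model (R 4.3.3, eBayes with a trend) of the 3 groups, with Benjamini-Hochberg adjustment over 15014 genes and a threshold of 0.05. The model was tested on simulated data. The p-values measure the spread between single mice within groups, pooled over the 3 groups. A near-identical copy holds at least 30% of the 31-base words of a coding transcript of the member, and each of its own transcripts consists to at least 50% of such words.

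Members and lists were chosen with earlier results of these data known. Named with values are members past the threshold, the 8 highest and 8 lowest log2 fold changes between cKO and Control, the 5 highest and 5 lowest means, the 5 largest SDs, paralogues and members named by role, Tardbp and Cnp, and list members past the threshold. Genes named by range or group overlap were chosen after their values were seen. The alternatives changed the pseudocount, the filter, the scaling, the covariates, the libraries, the member pattern and the counting of copies.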

Additional observations from a re-analysis of the deposited data

How the results depend on the processing

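Over 26 alternatives, 3 of them chosen after the data were seen, the count of members called stayed at 0 in all comparisons with 1 exception. Without the 2 libraries high in adipocyte markers (Control ID-2743 and ID-2754), 1 member was called between cKO and Control, Rps27rt, with a log2 fold change of 5.01 (limma, adjusted p = 0.0267). Then only Control ID-2746 remains, where Rps27rt is listed at 0, and it is assumed to vary like the other groups. Leaving out 1 library at a time gave 0 calls in each comparison, with medians of 0.03 to 0.27 for cKO against Control, -0.23 to -0.12 for cHet against Control and 0.16 to 0.44 for cKO against cHet. The lowest for cKO against Control and for cKO against cHet were those without cKO ID-2747, where 33 members changed sign against Control. At an unadjusted p under 0.05, the 24 members higher in cKO than in cHet became 4 without cHet ID-2745, 5 without cHet ID-2750, 6 without cKO ID-2747 and 38 without cKO ID-2748. With all libraries kept they became 6 after rescaling to equal sums, 6 under quantile normalization and 19 under scaling by median of ratios. They stayed at 24 with a changed pseudocount. The shares of all genes at this cut and above 0 were not counted for the alternatives, so the counts of members cannot be set beside one. Leaving out the 3 libraries whose genotype field differs kept ID-2748 as the only cKO library, so that a cKO spread could not be measured. The medians were then 0.02 for cKO against Control, -0.23 for cHet against Control and 0.22 for cKO against cHet. Under quantile normalization the median for cKO against cHet was 0.11, and 72 members lay above 0. Under the same setting the median for cHet against Control was -0.02, with 30 members above 0 where 7 were, and that for cKO against Control 0.10, with 67 above 0. Rescaling to equal sums moved the median of all genes between cKO and cHet to -0.12 and that of the members to 0.20, a distance of 0.31 as against 0.32. A sign change of a member that passed no threshold was not read as a reversal. No paired analysis was possible because the groups share no replicate numbers, and the labels do not say which mice formed a litter-matched set.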

Other observations

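Several genes of the cytosolic ribosome were left out by the rule on symbols. Rps3a1, the mouse gene of a small subunit protein, had 911, 1279 and 899 normalized TPM in cKO nerves, 865, 761 and 759 in cHet nerves, and 955, 875 and 811 in Control nerves. Fau, which encodes a small subunit protein fused to a ubiquitin-like domain, had 1537, 2729 and 1486 normalized TPM in cKO nerves, 1549, 1410.4 and 1334 in cHet nerves, and 1508, 1744 and 1860.0 in Control nerves. Rack1, a protein of the small subunit head, had 360.4, 548 and 374 normalized TPM in cKO nerves, 333, 291 and 292 in cHet nerves, and 356, 322 and 357 in Control nerves. In these 3 genes cKO ID-2747 was the highest library, and none passed the threshold between cKO and Control (limma, adjusted p = 0.657 for Rps3a1, 0.903 for Fau and 0.523 for Rack1). With Rps3a1, Rpl22l1 and Rpl7l1 taken in, 85 genes gave a median log2 fold change of 0.18 between cKO and Control.

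Some near-identical copies had another order of libraries than their parents. Rpl15-ps3 had 83.4, 385 and 112 normalized TPM in cKO nerves, 64.7, 171 and 79.7 in cHet nerves, and 53.7, 192 and 235 in Control nerves, while Rpl15 had 540.1 to 552 in the cKO. Rpl10-ps3 had 780.4, 823 and 756 normalized TPM in cKO nerves, 813, 568 and 667 in cHet nerves, and 816, 634 and 581 in Control nerves, where Rpl10 had 659, 1089 and 612 normalized TPM in cKO nerves, 541, 736 and 578 in cHet nerves, and 612, 865 and 879 in Control nerves. How reads were divided between parents and copies was not tested.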
